A study of Mus musculus with 10 samples.

Results

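Genes of γ-aminobutyric acid (GABA) signalling and of the interneurons that release it were examined in the hippocampus of mice with and without neuronal overexpression of PGC-1α. The genes were chosen by symbol and comprised 27 of the 23462 mouse genes that the arrays named through RefSeq accessions, measured by 38 of 56605 probes. They fell into 10 GABA-A receptor subunits, 2 GABA-B receptor subunits, 7 synthesis, transport and anchoring genes and 8 interneuron genes. Each gene was represented by its brightest tested probe, and the 11 further probes served as a check. The 10 arrays held hippocampal RNA from nPGC-1α mice and PGC-1αf/f controls, 5 arrays per group, all labelled male and 12 weeks old. The methods do not mention pooling, and each array was taken as 1 mouse. Both groups carried, on a C57BL/6 background, a PGC-1α transgene with an eGFP reporter behind a floxed stop cassette at the Rosa26 locus. The nPGC-1α mice also carried Eno2-Cre, in which the neuron-specific enolase promoter drives Cre in neurons at large and not in interneurons alone. Their littermates without Cre were the PGC-1αf/f controls, and the arrays were run in basal conditions. The comparison asked how the transgene changed the expression profile of the tissue, and each level below is the log2 signal of a probe relative to the 75th percentile of its array (0 being the 75th percentile itself).

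GABA is the main inhibitory transmitter of the adult forebrain, made from glutamate by the decarboxylases of Gad1 and Gad2, loaded into vesicles by the product of Slc32a1 and cleared by plasma membrane transporters. It opens chloride channels built from GABA-A subunits and activates the GABA-B receptor, a G protein-coupled dimer of the Gabbr1 and Gabbr2 products. Hippocampal interneurons are a minority of the cells there and are sorted into classes by the peptides and calcium-binding proteins they contain. PGC-1α is a transcriptional coactivator with no DNA-binding domain of its own, which works through partners such as the oestrogen-related receptors and nuclear respiratory factor 1, and GABAergic interneurons are among the neurons that contain much of it.

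Promoter sequences were read from RefSeq (GRCm38.p6) as the 250 bases before each gene's start, since the partners of PGC-1α bind known motifs. Such windows were held for 24 of the 27 genes, all but Gabrd, Abat and Calb2. The search covered both strands. The extended half-site TCAAGGTCA of the oestrogen-related receptors was found in 0 of the 24 genes, against 0.422% of 27025 genes in the RefSeq table. Its core AAGGTCA, which also lies inside the extended motif, was found in Slc6a11 and Slc6a13, against 4.7% of all genes. The motif of nuclear respiratory factor 1 was found in Gabrb1 alone, against 4.23%. The cyclic AMP response element TGACGTCA was found in Sst alone, against 1.77%. TATAAA was found in Gabra3, Gabrb2, Gad1 and Vip, against 14.3%. The windows of Dlx1 and Reln, the only members at an unadjusted p under 0.05 between the groups, held none of these motifs and are given in full. They are followed by the windows of Slc6a11, Gabrb1 and Sst, with the motif in capitals, as examples of members that did hold one. In Slc6a11 the 2 copies of AAGGTCA began at positions -217 and -183 from the start. The Gabrb1 motif began at -16 in 1 of its windows, and the Sst motif at -48. A match describes letters in a window and not a bound site.
Dlx1, chr2:71529195-71529444, plus strand: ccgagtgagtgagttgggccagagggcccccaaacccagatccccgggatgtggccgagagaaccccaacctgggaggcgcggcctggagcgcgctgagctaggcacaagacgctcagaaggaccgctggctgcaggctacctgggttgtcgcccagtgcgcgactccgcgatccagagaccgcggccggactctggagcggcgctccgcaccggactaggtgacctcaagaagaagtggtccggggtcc
Reln, chr5:22344706-22344955, minus strand: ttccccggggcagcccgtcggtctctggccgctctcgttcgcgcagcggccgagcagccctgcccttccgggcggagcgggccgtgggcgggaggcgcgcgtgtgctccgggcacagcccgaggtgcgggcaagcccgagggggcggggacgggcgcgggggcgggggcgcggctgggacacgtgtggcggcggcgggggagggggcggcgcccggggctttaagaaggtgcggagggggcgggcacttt
Slc6a11, chr6:114130991-114131240, plus strand: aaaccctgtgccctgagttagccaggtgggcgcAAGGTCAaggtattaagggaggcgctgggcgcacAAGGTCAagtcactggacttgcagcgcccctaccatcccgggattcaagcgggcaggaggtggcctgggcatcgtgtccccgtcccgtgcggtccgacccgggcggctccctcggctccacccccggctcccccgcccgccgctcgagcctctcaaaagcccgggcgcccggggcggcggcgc
Gabrb1, chr5:71699682-71699931, plus strand: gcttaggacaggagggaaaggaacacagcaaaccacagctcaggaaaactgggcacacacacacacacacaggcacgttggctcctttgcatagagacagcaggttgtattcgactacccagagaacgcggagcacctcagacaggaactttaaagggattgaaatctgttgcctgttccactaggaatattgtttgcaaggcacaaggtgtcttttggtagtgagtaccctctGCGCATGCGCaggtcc
Sst, chr16:23890845-23891094, minus strand: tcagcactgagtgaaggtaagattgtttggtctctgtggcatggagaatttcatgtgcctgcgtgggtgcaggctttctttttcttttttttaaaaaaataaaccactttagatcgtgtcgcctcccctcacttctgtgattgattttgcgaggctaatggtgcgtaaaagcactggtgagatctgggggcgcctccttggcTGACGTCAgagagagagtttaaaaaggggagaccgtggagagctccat

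Several arrays stood apart. Between 74.5% and 81.5% of spots cleared the background limit in PGC-1αf/f mice and between 67.2% and 73.4% in nPGC-1α mice, and the limit of detection lay higher on the nPGC-1α arrays. Replicate 1 of each group had the most spots marked as outliers, 10.5% and 11.6%. Signal of the Y-linked genes Kdm5d, Uty and Ddx3y cleared that limit in only 4 mice (replicate 1 of PGC-1αf/f and replicates 1, 3 and 5 of nPGC-1α), although all mice were labelled male. Replicates 1 to 4 of both groups shared a slide, on which the groups lay in separate rows and same-numbered replicates in the same column. Both replicates 5 lay on another slide. Ppargc1a, the overexpressed gene, did not separate the labels, with a mean of 2.20 ± 0.08 (SD, n = 5) in PGC-1αf/f and 2.20 ± 0.11 (n = 5) in nPGC-1α mice (limma adjusted p = 0.99), so the directions below rest on the labels. Although the labels give neuron as the cell type, the RNA came from whole hippocampus, and all 4 astrocyte, 5 oligodendrocyte, 4 microglia and 3 endothelial markers were well above background on all 10 arrays, as were the 3 pan-neuronal and 5 excitatory neuron markers.

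No GABA or interneuron gene differed between the groups after adjustment. By limma 0 of the 25 genes tested passed an adjusted p of 0.05, against 0.00255% of 39142 probes on the array, and the smallest adjusted p among them was 0.293. At an unadjusted p under 0.05, 2 of 25 passed, Dlx1 and Reln, both higher in nPGC-1α mice, against 11.9% of all probes. The shares of all probes were 3.39% higher and 8.52% lower. Of the 25 genes, 8 were higher and 17 lower in nPGC-1α mice, with a median difference of -0.03 on the log2 scale, while over all probes 15977 were higher and 23165 lower with a median of -0.04. The differences ran from -0.37 for Gad1 to 0.43 for Gabbr2. For 17 of the 25 the 95% confidence interval of the difference lay within 0.5 of 0 on the log2 scale, and the other intervals reached further. The groups overlapped for all 19 tested genes with a fitted value on every array, where 2.74% of 34000 such probes showed no overlap. All 25 were well above background on all 10 arrays. Gabra6 and Gabrg3, the remaining pair, were not well above background on every array of either group and were not tested. In tissue RNA, fewer cells of a type and less RNA per cell cannot be told apart.

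**Figure D1:**
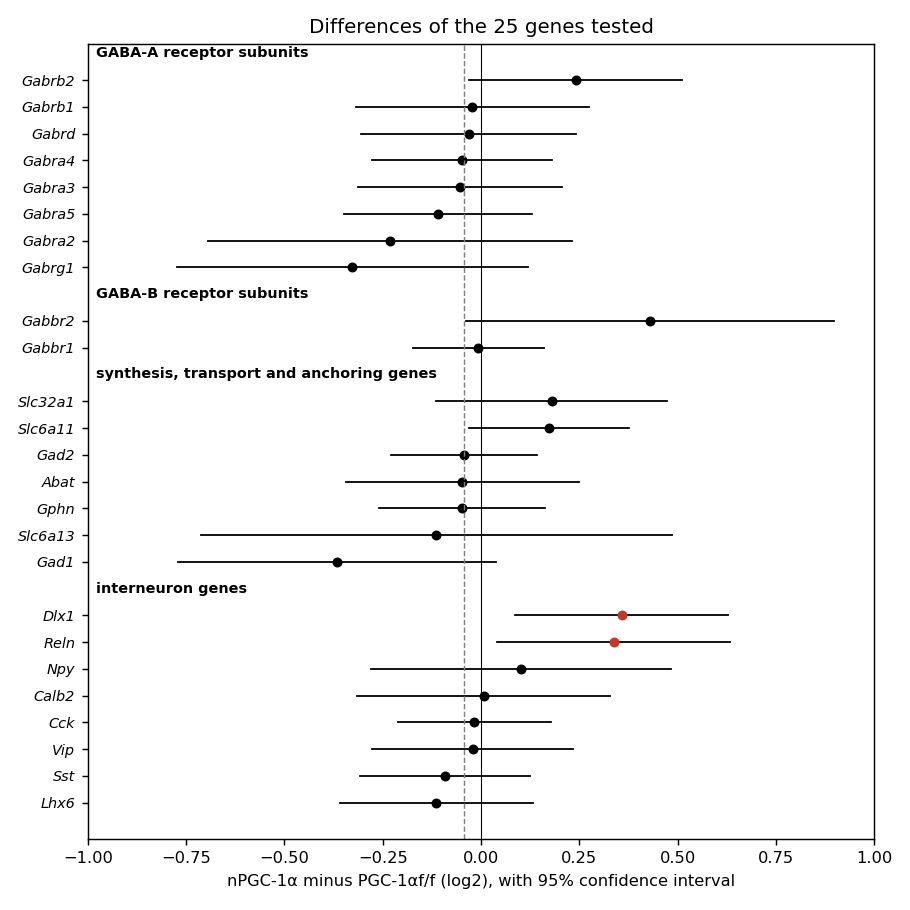
Difference in level between nPGC-1α and PGC-1αf/f hippocampus (x axis, log2) for the 25 genes tested, by role, with 95% confidence intervals from limma as horizontal lines. The dashed line is the median over all probes (-0.04), red points are Dlx1 (0.36) and Reln (0.34), the genes at an unadjusted p under 0.05, and the intervals of the other 23 cross 0.

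By role, 1 of the 8 GABA-A subunits tested was higher and 7 lower, with a median difference of -0.05. The 7 synthesis, transport and anchoring genes had 2 higher and 5 lower, with a median of -0.05. The 8 interneuron genes had 4 higher and 4 lower, with a median of -0.01. These medians lie close to that of all probes and were not tested against each other.

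The GABA-A channel is assembled from alpha, beta and a gamma or delta subunit, and the alpha subunits set its location and its sensitivity to drugs. Of the alpha subunits typical of hippocampus, Gabra4 and Gabra5 differed little, and Gabra2 is described below. Gabra5, whose subunit is enriched in hippocampal pyramidal cells and mediates tonic inhibition, had a mean of 2.42 ± 0.15 (SD, n = 5) in PGC-1αf/f and 2.31 ± 0.16 (n = 5) in nPGC-1α mice. Its second probe gave the same direction (-0.08 against -0.11). Gabra4, a partner of the delta subunit in dentate granule cells, was 1.58 ± 0.17 and 1.54 ± 0.11. Gabrd, the delta subunit of receptors outside synapses, was 0.83 ± 0.24 and 0.80 ± 0.13. For these genes and for Gabra3 (difference -0.05) the 95% intervals lay between -0.35 and 0.24. The subunits of tonic inhibition thus showed no difference larger than the spread between mice.

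Gabra2, an alpha subunit found at the axon initial segment of pyramidal cells, was lower by a wider margin on fewer values. Its levels on PGC-1αf/f arrays 2 to 5 were 2.45, 2.42, 2.66 and 1.82, and on nPGC-1α arrays 2 to 4 they were 2.18, 1.95 and 2.19. Both replicates 1 and nPGC-1α replicate 5 had spots marked as outliers, which were left out of the fit. The groups overlapped only through PGC-1αf/f replicate 5, the lowest value of all. The difference was -0.23 (95% interval -0.69 to 0.23, limma adjusted p = 0.673). It was -0.40 without PGC-1αf/f replicate 5 (limma adjusted p = 0.273) and -0.13 with the marked spots kept.

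Gabrg1, a gamma subunit that is scarce in most adult neurons, had the lowest difference of the 8 GABA-A subunits tested. Its levels were -0.35, -0.90, -1.48, -1.16 and -0.76 on PGC-1αf/f arrays 1 to 5 and -1.39, -1.29, -1.36, -1.45 and -0.80 on nPGC-1α arrays 1 to 5. Both groups spanned a wide range, and PGC-1αf/f replicate 1 was the highest of the 10. The difference was -0.33 (SE 0.20, exact permutation p = 0.175, limma adjusted p = 0.547). Without any 1 array it ranged from -0.47 to -0.18, the latter without PGC-1αf/f replicate 1. An unadjusted p of 0.05 by limma was passed in 2 of these fits, and the smallest limma adjusted p in any refit was 0.327. A dimmer probe of the gene gave -0.03. In RefSeq order along chromosome 5 the members Gabrg1, Gabra2, Gabra4 and Gabrb1 follow one another, and their differences were -0.33, -0.23, -0.05 and -0.02.

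The beta subunits carry part of the GABA-binding site. Gabrb1 was 1.46 ± 0.15 (SD, n = 4) in PGC-1αf/f and 1.43 ± 0.13 (n = 3) in nPGC-1α mice. Gabrb2 was the single GABA-A gene with a positive difference, 0.24, on a dim probe whose levels were -2.48, -2.55, -2.26, -1.93 and -2.05 in PGC-1αf/f and -2.01, -1.99, -2.05, -2.05 and -1.95 in nPGC-1α mice. The nPGC-1α values lay in a narrow band inside the upper end of the control range (limma adjusted p = 0.472). Its brightest probe could not be tested because its spots were marked as outliers on 6 arrays, and with those spots kept its difference was -0.02. The sign for Gabrb2 therefore depended on the probe.

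Gabra6 and Gabrg3 lay near the limit of detection. Gabra6, typical of cerebellar granule cells, was detected well above background in 3 controls and 2 nPGC-1α mice. Gabrg3 was detected at that limit in 4 controls and 0 nPGC-1α mice. Its levels were -6.68, -6.16, -6.02, -6.26 and -6.54 in PGC-1αf/f and -7.04, -6.69, -6.78, -7.20 and -6.75 in nPGC-1α mice, and the groups did not overlap. The share without overlap was 2.74% among tested probes with all 10 values, and it was not taken for dim probes outside the fit. The lack of overlap is therefore no result about this gene. No fold is given, because the PGC-1αf/f mean of -6.33 was under -6.26, the level at which a probe would have counted as well above background on the noisier nPGC-1α arrays.

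**Figure D2:**
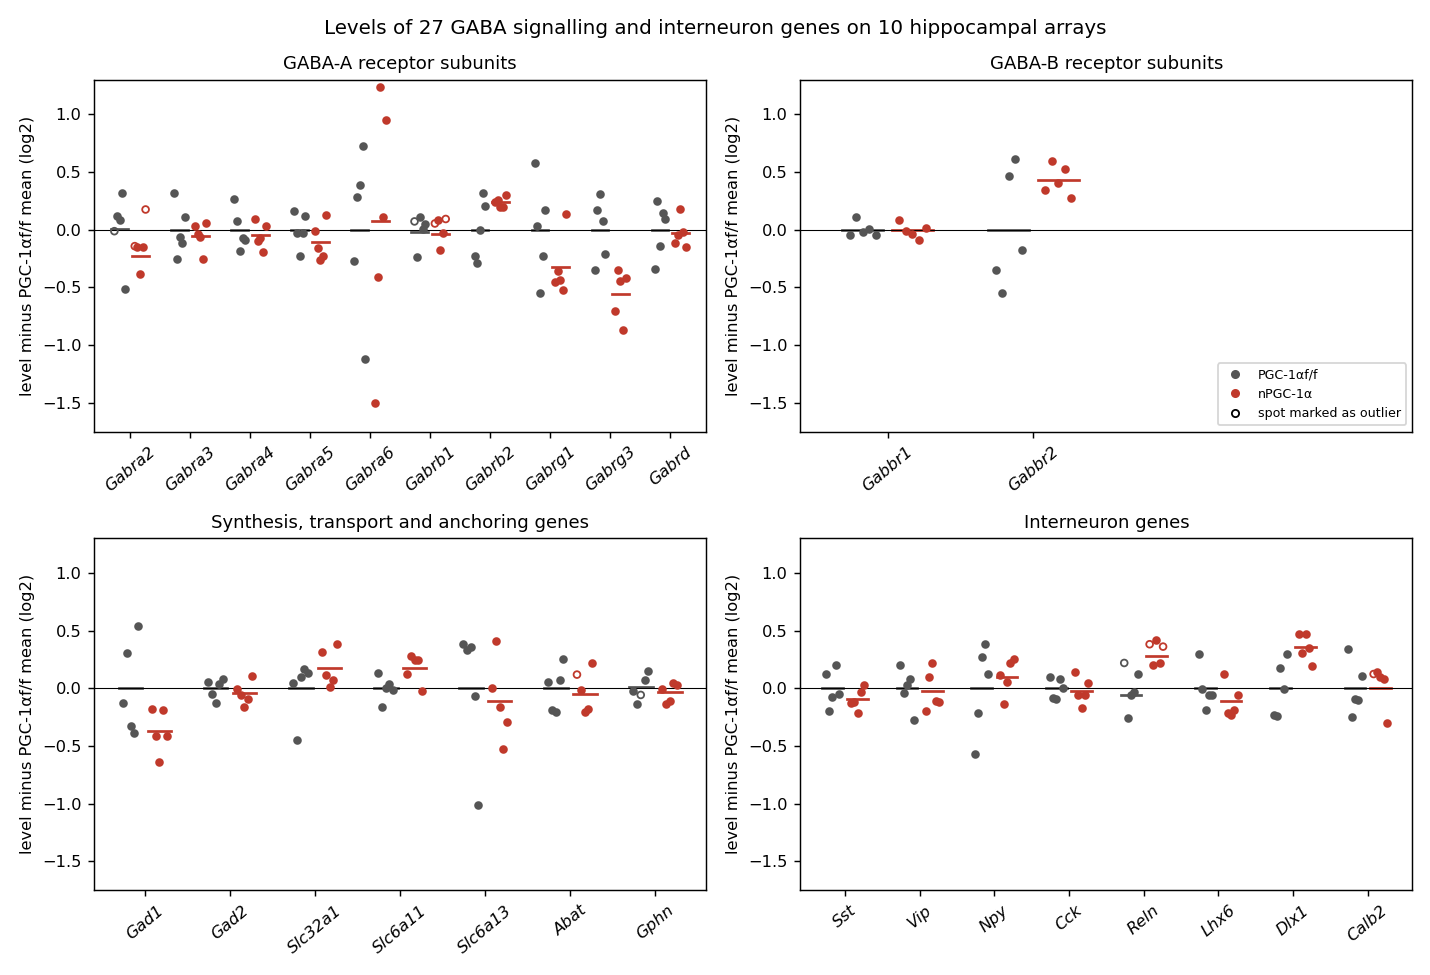
Level of each of the 27 genes on each of the 10 arrays, as the log2 difference from the PGC-1αf/f mean over all spots (y axis), in 4 panels by role. Grey points are PGC-1αf/f and red points nPGC-1α mice, and lines are group means without the spots marked as outliers (open circles). The groups overlap in nearly every gene. Dlx1 lies above every control on 4 of 5 nPGC-1α arrays, on replicate 2 only just. Gabra6 and Gabrg3 were not tested.

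The GABA-B subunits differed from each other in how tightly they were measured. Gabbr1, which binds GABA, was 1.47 ± 0.07 (SD, n = 5) in PGC-1αf/f and 1.47 ± 0.06 (n = 5) in nPGC-1α mice, a difference of -0.01 with a 95% interval of -0.17 to 0.16. A second, dimmer probe of Gabbr1 differed in direction and was less tight, at 0.09 (95% interval -0.24 to 0.42). Gabbr2, which carries the receptor to the membrane and couples it to G proteins, had levels of -2.58, -2.78, -1.77, -1.62 and -2.41 in PGC-1αf/f and -1.89, -1.63, -1.82, -1.71 and -1.95 in nPGC-1α mice. Its PGC-1αf/f arrays fell apart into a pair at the nPGC-1α level and 3 arrays below all nPGC-1α values. The difference of 0.43 (SE 0.21, 95% interval -0.04 to 0.90) was the largest of the 25 genes and did not pass (exact permutation p = 0.143, limma adjusted p = 0.457). It ranged from 0.29 without PGC-1αf/f replicate 2 to 0.58 without PGC-1αf/f replicate 4. The latter passed an unadjusted p of 0.05 by limma, with an adjusted p of 0.196.

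Among the synthesis genes, Gad2, the decarboxylase concentrated at nerve terminals, was 2.83 ± 0.08 (SD, n = 5) in PGC-1αf/f and 2.78 ± 0.10 (n = 5) in nPGC-1α mice, a difference of -0.04 with a 95% interval of -0.23 to 0.14. Gad1, the decarboxylase that makes most of the brain's GABA, had the lowest difference of all 25 genes. The probe tested, on a dim transcript record of the gene, read -2.86, -2.43, -3.07, -3.12 and -2.20 in PGC-1αf/f and -2.92, -3.15, -3.38, -2.92 and -3.15 in nPGC-1α mice. All nPGC-1α values lay under the control mean, and 2 of the 5 controls lay among them. The difference was -0.37 (SE 0.18, exact permutation p = 0.111, limma adjusted p = 0.464), and -0.23 without PGC-1αf/f replicate 5. The bright Gad1 probe carried an outlier mark in 8 mice and was not tested. With those spots kept it read 2.38, 2.32, 2.47, 2.63 and 2.68 in PGC-1αf/f and 2.38, 2.23, 2.21, 2.34 and 2.36 in nPGC-1α mice, a difference of -0.19 (limma adjusted p = 0.457). Both Gad1 probes thus had the same sign, and neither passed.

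The transporters and the breakdown enzyme did not pass either. Slc32a1, the vesicular GABA transporter, read 1.89, 1.40, 1.95, 2.01 and 1.98 in PGC-1αf/f and 2.16, 1.96, 1.86, 1.92 and 2.23 in nPGC-1α mice. PGC-1αf/f replicate 2 was the lowest of the 10 by a wide gap. The difference of 0.18 (exact permutation p = 0.246) became 0.07 without it. That array also had the highest mean level of the 5 medial habenula markers, -1.50, where the other controls had -3.49 to -3.25 and nPGC-1α mice -3.75 to -2.52, and the part of this in the result was not tested. Of those markers, Tac2, Gpr151 and Nwd2 were well above background on all 10 arrays.

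Slc6a11, an astrocytic GABA transporter, read -0.71, -1.01, -0.84, -0.81 and -0.86 in PGC-1αf/f and -0.72, -0.57, -0.61, -0.60 and -0.87 in nPGC-1α mice. 3 nPGC-1α values lay above all controls, and the other two lay inside the control range. The difference was 0.17 (95% interval -0.03 to 0.38, exact permutation p = 0.0714, limma adjusted p = 0.489). The mean level of 4 astrocyte markers was 0.08 to 0.63 in PGC-1αf/f and 0.31 to 0.46 in nPGC-1α mice. Its relative Slc6a13, a transporter of the leptomeninges and vessels, was the least even of the transporters, at 1.20, 1.15, 1.17, 0.74 and -0.19 in PGC-1αf/f and 0.82, 1.22, 0.65, 0.29 and 0.52 in nPGC-1α mice. Its low value on PGC-1αf/f replicate 5 went with the lowest mean level of 7 leptomeningeal markers, 0.02, against 0.43 to 1.29 on the other 9 arrays. The difference was -0.11, and -0.37 without that array (limma adjusted p = 0.423). All 7 leptomeningeal markers were well above background on all 10 arrays, and their part in the Slc6a13 difference was not tested.

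**Figure D3:**
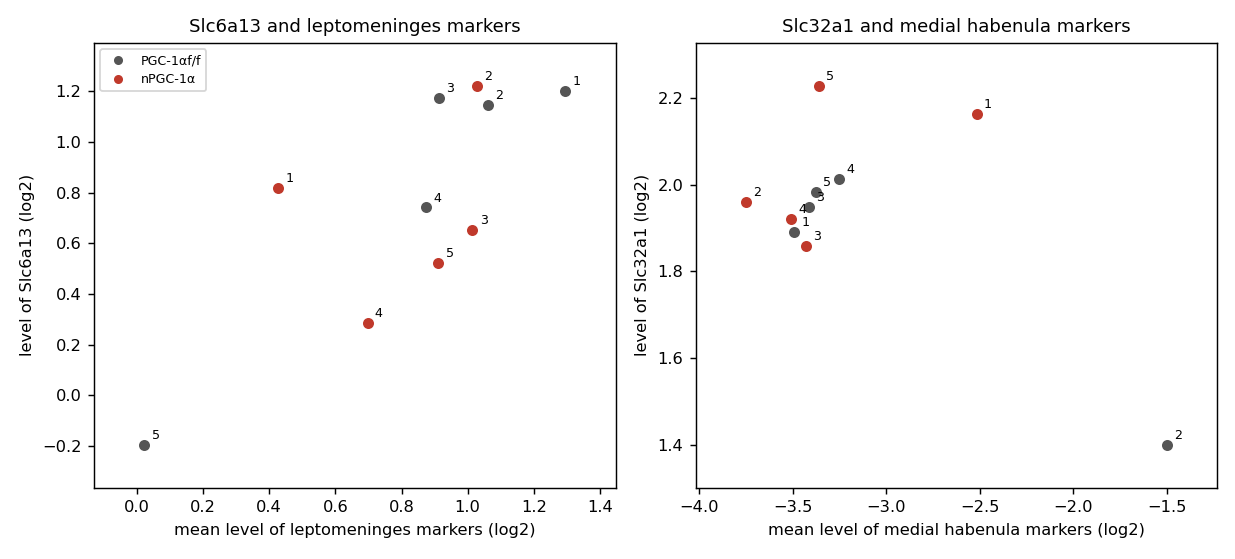
Level of Slc6a13 against the mean level of 7 leptomeningeal markers (left) and level of Slc32a1 against the mean level of 5 medial habenula markers (right), both axes log2, 1 point per array numbered by replicate, grey for PGC-1αf/f and red for nPGC-1α mice. PGC-1αf/f replicate 5 is lowest on both axes at left (0.02 and -0.19), and PGC-1αf/f replicate 2 lies alone at right (-1.50 and 1.40).

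Abat, the transaminase that degrades GABA, was 1.88 ± 0.19 (SD, n = 5) in PGC-1αf/f and 1.83 ± 0.20 (n = 4) in nPGC-1α mice. Gphn, or gephyrin, the scaffold that anchors GABA-A receptors at inhibitory synapses, was 1.89 ± 0.12 (n = 4) and 1.84 ± 0.08 (n = 5). Their differences were -0.05 each, with 95% intervals between -0.34 and 0.25.

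Among interneuron genes 0 of 8 passed after adjustment, and the differences of the peptide genes ran from -0.09 for Sst to 0.10 for Npy. The 2 members at an unadjusted p under 0.05, of 25 and against 11.9% of all probes, were both in this group. Dlx1, a homeobox factor needed for interneuron development and kept on in some adult interneurons, read -0.47, -0.48, -0.07, -0.25 and 0.06 in PGC-1αf/f and 0.23, 0.06, 0.23, 0.11 and -0.05 in nPGC-1α mice. On 4 of the 5 nPGC-1α arrays it lay above every control, and the groups overlapped through nPGC-1α replicate 5. Of those 4, nPGC-1α replicate 2 was only just above PGC-1αf/f replicate 5, both being 0.06 when rounded. The difference was 0.36 (SE 0.12, 95% interval 0.09 to 0.63), a 1.28-fold higher level, and did not pass after adjustment (limma adjusted p = 0.293). Taken alone, the exact permutation test of this gene gave p = 0.0159, where 5 arrays against 5 can give no less than 0.00794. Dlx1 stayed higher in all 25 refits under other settings, between 0.27 and 0.47, and passed an unadjusted p of 0.05 in 23 of them. These refits share the same arrays, by which Dlx1 was singled out, so such counts lend no further support. The Dlx1 difference was 0.39 with the Y-linked signal as a block. With replicate 2 of PGC-1αf/f and replicate 3 of nPGC-1α left out together, the arrays richest in habenula and choroid plexus markers, it was 0.27 and did not pass an unadjusted p of 0.05 (limma adjusted p = 0.947).

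Reln, which encodes the secreted matrix protein reelin of interneurons near the hippocampal fissure and of Cajal-Retzius cells, read -0.68, -0.49, -0.46 and -0.31 on PGC-1αf/f arrays 2 to 5 and -0.23, -0.01 and -0.21 on nPGC-1α arrays 2 to 4. The spots of both replicates 1 and of nPGC-1α replicate 5 were marked as outliers, at -0.21, -0.05 and -0.07. The groups did not overlap among the 7 values fitted, and with the marked spots kept the highest control reached the lowest nPGC-1α values. The difference was 0.34 (SE 0.13, 95% interval 0.04 to 0.63, limma adjusted p = 0.367). On those 4 and 3 values the exact permutation test gave p = 0.0571, where the least it can give is 0.0286. The difference was 0.32 with the marked spots kept. It passed an unadjusted p of 0.05 in 17 of 25 refits under other settings, which share these arrays and lend no further support. Without nPGC-1α replicate 3 it was 0.27 (limma adjusted p = 0.706) and did not pass an unadjusted p of 0.05. The 3 Cajal-Retzius markers had mean levels of -4.25 to -4.01 in PGC-1αf/f and -4.26 to -4.00 in nPGC-1α mice.

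The peptide genes name the main classes. Sst, somatostatin, was 3.04 ± 0.16 (SD, n = 5) in PGC-1αf/f and 2.95 ± 0.09 (n = 5) in nPGC-1α mice. Vip, of interneurons that inhibit other interneurons, was 0.18 ± 0.18 and 0.16 ± 0.17. Cck, of a class of basket cells and also made by pyramidal cells, was 3.21 ± 0.09 and 3.19 ± 0.12. Npy, neuropeptide Y, was 1.84 ± 0.39 and 1.94 ± 0.16, with PGC-1αf/f replicate 1 lowest at 1.27. The 95% interval of the difference was -0.31 to 0.12 for Sst, -0.28 to 0.23 for Vip, -0.21 to 0.18 for Cck and -0.28 to 0.48 for Npy, so these arrays left room for a moderate difference in Npy more than in the others. Lhx6, a homeobox factor of interneurons born in the medial ganglionic eminence, was 3.97 ± 0.18 and 3.85 ± 0.15, a difference of -0.11. Its second probe was not well above background on any array and was not tested, and its group means differed by 1.02. Calb2, or calretinin, the calcium-binding protein of interneuron-selective cells, was -0.44 ± 0.23 (n = 5) and -0.43 ± 0.20 (n = 4).

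**Figure D4:**
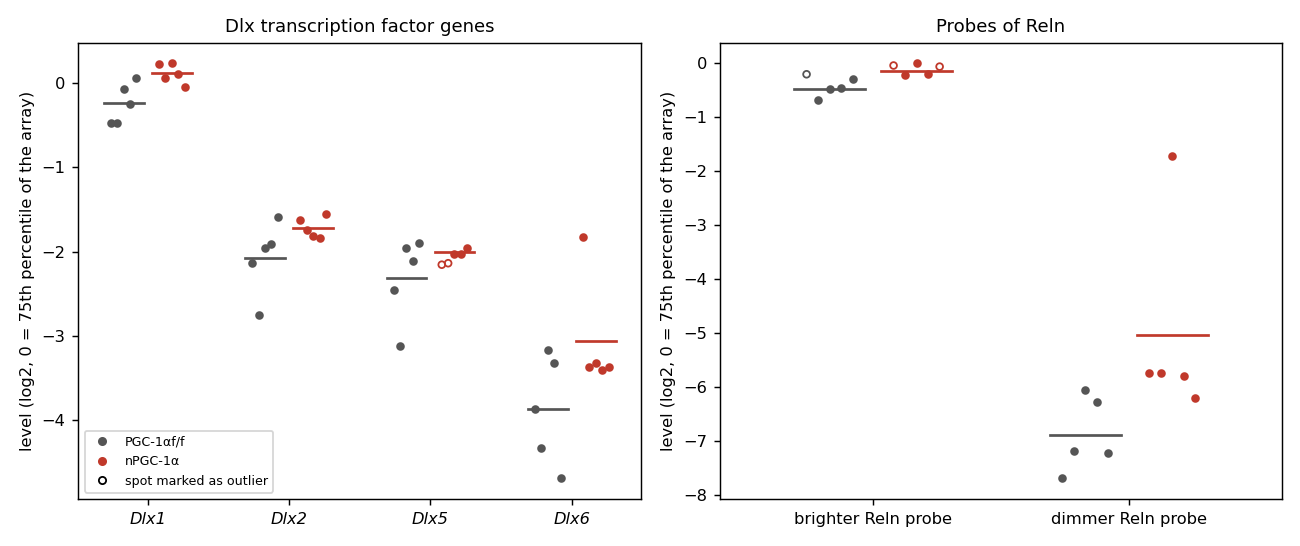
Levels (y axes, log2, 0 being the 75th percentile of the array) of 4 Dlx genes (left) and of both Reln probes (right) on each array, grey for PGC-1αf/f and red for nPGC-1α mice, with group means as lines and spots marked as outliers as open circles. A single nPGC-1α array lies far above the rest for Dlx6 (-1.83, replicate 1) and for the dimmer Reln probe (-1.73, replicate 3).

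Further probes of the same genes gave a second reading for 10 members. Of the 11 further probes 8 were tested, with 5 higher and 3 lower in nPGC-1α mice. At an adjusted p of 0.05 0 passed by limma, and 3 passed an unadjusted p of 0.05, all dim probes that were higher in nPGC-1α mice, against 3.39% of all probes higher at that p. Of these, the dim Reln probe entered the fit only through the group where it was higher, so its passing lends no support. The dim Abat probe read -4.91, -4.89, -4.57, -4.69 and -5.14 in PGC-1αf/f and -3.91, -4.30, -4.52, -4.42 and -4.69 in nPGC-1α mice, a difference of 0.47 against -0.05 for the bright probe. The groups overlapped in a narrow zone. The dim Calb2 probe read -3.02, -3.76, -2.88, -2.60 and -3.92 against -2.54, -2.53, -2.30, -2.44 and -3.18, a difference of 0.64 against 0.01 for the bright probe. The dim Reln probe differed by 1.84 (SE 0.76). It read -1.73 on nPGC-1α replicate 3, -6.20 to -5.74 on the other nPGC-1α arrays and -7.69 to -6.06 in PGC-1αf/f mice, and without replicate 3 the difference was 1.01 (limma adjusted p = 0.415). Bright and dim probes of Abat and Calb2 thus gave unlike readings. The additive noise of the arrays, as the files state it, was 5.16 to 8.98 signal units in PGC-1αf/f and 10.7 to 20.9 in nPGC-1α mice, and its part in the dim probes was not tested.

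**Figure D5:**
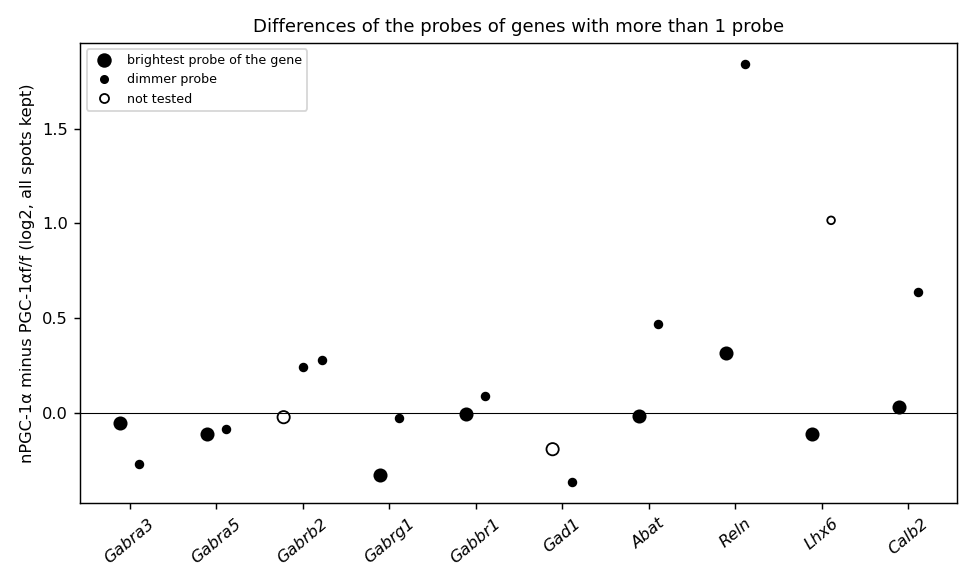
Difference between nPGC-1α and PGC-1αf/f means with all spots kept (y axis, log2) for each probe of the 10 genes with more than 1 probe. Large points are the brightest probe of a gene, small points dimmer probes and open points probes not tested. The dim probes of Reln (1.84), Calb2 (0.64) and Abat (0.47) lie far above the bright probe of the same gene.

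A list of 42 other genes of the pathway, from receptor auxiliary proteins and chloride transporters to further interneuron markers, was read from the same fit. Of the 36 tested, 22 were higher and 14 lower in nPGC-1α mice, with a median difference of 0.04, and 0 passed an adjusted p of 0.05 by limma (smallest 0.290). At an unadjusted p under 0.05, 1 of 36 was higher and 1 lower, against 3.39% and 8.52% of all probes. The higher one was Dlx6, a homeobox factor of the same family as Dlx1, which read -3.86, -4.32, -3.16, -3.31 and -4.68 in PGC-1αf/f and -1.83, -3.37, -3.32, -3.40 and -3.37 in nPGC-1α mice. Its difference was 0.81 (SE 0.37, limma adjusted p = 0.418). Without nPGC-1α replicate 1, the highest value, it was 0.50 and did not pass an unadjusted p of 0.05, nor did it without any 1 of PGC-1αf/f replicates 1, 2 and 5 or nPGC-1α replicates 2, 3 and 5. The lower one was Calb1, or calbindin, abundant in dentate granule cells and some interneurons. It read 2.61, 2.54, 2.30, 2.41 and 2.48 in PGC-1αf/f and 2.24, 2.16, 2.21 and 2.16 on nPGC-1α arrays 2 to 5, a difference of -0.27 (SE 0.09, limma adjusted p = 0.290). These values did not overlap, but the spot of nPGC-1α replicate 1, marked as an outlier at 2.30, reached the lowest control. Calb1 did not pass an unadjusted p of 0.05 with normexp background correction or with replicate 2 of PGC-1αf/f and replicate 3 of nPGC-1α left out together. The other members of the Dlx family, looked at after their values were seen, were Dlx2 with a difference of 0.35 (0.18 without PGC-1αf/f replicate 2) and Dlx5 with 0.30 (0.10 without that array and -0.01 with the replicate number as a block), neither of which passed an unadjusted p of 0.05.

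The spread between mice was not shared evenly by the arrays. PGC-1αf/f replicate 2 had the lowest value of its group for 11 of the 25 genes, among them Gabbr2, Slc32a1, Slc6a11, Reln and Dlx1. In the other group nPGC-1α replicate 3 was lowest for 11 of 25, among them Gad1, Gad2, Slc32a1, Sst and Lhx6. Choroid plexus markers, 6 of 6 well above background on all arrays, had their highest mean level on that array, 1.21, where the other nPGC-1α mice had -2.54 to -1.72 and the controls -2.86 to 0.42. Without both arrays 0 of 25 genes passed an unadjusted p of 0.05. Markers of excitatory neurons were 1.04 to 1.39 in PGC-1αf/f and 1.35 to 1.49 in nPGC-1α mice, with 1 of 5 higher at an unadjusted p under 0.05 and 0 of 5 after adjustment. The 5 oligodendrocyte markers had mean levels of 1.07 to 1.66 in PGC-1αf/f and 1.33 to 2.06 in nPGC-1α mice, with replicates 3, 4 and 5 of nPGC-1α above every control, a median difference of 0.32 and 0 of 5 at an unadjusted p under 0.05. The part of either list in the differences above was not tested.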

How the data were processed

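Total hippocampal RNA, taken as that of 10 mice, was labelled with Cy3 and hybridised to 1-colour Agilent mouse 8 x 60k v2 arrays. The deposited files held, per the file headers, spot intensity from Feature Extraction 11.5.1.1 (the methods name another version), background-subtracted by the authors' scanner software and not yet normalised between arrays. The authors also deposited a table of log2 values for 41606 of the probes, whose normalisation is not stated, used here as an alternative only. Every column of sample values belonged to 1 of the 10 samples, and groups and replicate numbers came from the labels. Each array was taken as 1 mouse, and on that reading p-values measure the spread between mice. The number of arrays limits the precision.

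Spots marked as outliers and control spots were left out of the fit, and log2 of the processed signal was taken minus log2 of each array's 75th percentile over all gene spots. Spots of a probe were averaged. A probe entered the fit if, in either group, every array whose spot was not marked as an outlier read it well above background. Both groups also had to have 3 or more values, and 39142 of 56605 probes entered. Genes were named for 33767 probes through RefSeq accessions (GRCm38.p6 table). The array design used another build, so no array coordinates are given. limma 3.58.1 (R 4.3.3; lmFit, eBayes, two-sided, Benjamini-Hochberg over all probes kept) was the main test and was tested on simulated data. Single genes also had a two-sided exact permutation test over arrays.

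The members and all gene lists were chosen with earlier results of these data known. All 27 members were named, with the targeted gene, other pathway genes at an unadjusted p under 0.05, and further probes that differed in direction or passed that p. Alternatives changed the normalisation, background correction, filter, outlier marks, probe choice, slide or replicate as a block, variance model, test (the methods' Mann-Whitney test) and arrays left out.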

Additional observations from a re-analysis of the deposited data

Results flagged for a closer look

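In 9 of 76 groups of 5 or 4 arrays, 1 array lay farther from the others than a gap test at the 95% level allows. Chance alone singles out about 1 in 20 groups, here 3.8. Gabrg1 had a high value on nPGC-1α replicate 5 (-0.80, the others -1.45 to -1.29) and, on its dimmer probe, on nPGC-1α replicate 2 (-4.05, the others -5.43 to -5.09), so its 2 probes singled out different mice. Calb2 was low on nPGC-1α replicate 5 by both of its probes, at -0.73 (the others -0.36 to -0.29) and -3.18 (the others -2.54 to -2.30). The second Gabbr1 probe was high on that array as well (1.44, the others 0.75 to 0.88), while its brighter probe was not singled out. Slc32a1 was low on PGC-1αf/f replicate 2 (1.40, the others 1.89 to 2.01). The dim Reln probe was high on nPGC-1α replicate 3 (-1.73, the others -6.20 to -5.74), and Dlx6 on nPGC-1α replicate 1 (-1.83, the others -3.40 to -3.32). The second Lhx6 probe was highest on PGC-1αf/f replicate 1 (-8.87, the others -9.82 to -9.73), where it was not well above background.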

How the results depend on the processing

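Across 26 alternatives the count of members at an adjusted p of 0.05 remained 0. Of 625 recomputed differences of single genes, 619 moved by less than the spread between mice (the larger SD of both groups) and 6 by more. Leaving out 1 array cannot move a difference by that much, and a change of variance model alone leaves it as it is. Much of this count was therefore fixed in advance and is no measure of stability. No gene was called, so none could lose a call. The sign held in all 25 refits for 10 of 25 genes, and in as few as 16 for Gabbr1 and Calb2, so the tally of 8 higher and 17 lower depends on small differences. The mean of all tested probes gave 0.28 for Abat, 1.21 for Reln and 0.36 for Calb2. The value for Reln includes its dim probe, which entered the fit through the nPGC-1α arrays alone. Members at an unadjusted p of 0.05 numbered 2, and 1 with median centring, 4 on slide 1 only, 0 with replicate 2 of PGC-1αf/f and replicate 3 of nPGC-1α left out together, 1 by the exact Mann-Whitney test and 1 to 4 without any 1 array. Of the other pathway genes 2 passed that p, and 0 with normexp, 1 with no filter on dim probes, 4 with the mean of a gene's probes, 0 without that pair of arrays, 1 with array weights, 1 by the Mann-Whitney test and 1 to 2 without any 1 array. The GABA-A median of -0.05 became -0.15 with the Y-linked signal as a block. Over all probes 1 passed an adjusted p of 0.05, and 40 with median centring, 2 with the mean of a gene's probes, 10 with array weights, 4619 with no filter on dim probes, 0 to 3 without any 1 array, and 0 with normexp, with the filter on all 10 arrays, with slide as a block, with the Y-linked signal as a block, with trended robust variance and by the Mann-Whitney test. Same-numbered arrays had correlated deviations in each pair (0.08 to 0.36, 4 of 5 over 0.1), yet not every array correlated best with its own number. The number also follows array position, since replicates 1 to 4 of both groups shared slide columns. No label says that numbers pair mice, so the replicate block was kept as an alternative. With it 3 members passed an unadjusted p and 0 an adjusted p, as did 0 of all probes. The cause of these shifts was not tested. The Y-linked block and the fit without the pair of arrays were chosen after seeing the data. Precision was limited by 5 arrays a group and, for Gabra2, Gabrb1 and Reln, by spots marked as outliers. The limit of detection lay higher on nPGC-1α arrays, which bears on Gabra6, Gabrg3 and the dimmest further probes.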
